A study of Homo sapiens with 18 samples.

Results

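The transcriptional response to silencing of IRF1 was examined in BT-549 cells, a mesenchymal cell line derived from a triple-negative breast cancer (TNBC). The comparison takes in 6 of the 18 RNA-seq libraries of the series, 3 from BT-549/IRF1shRNA cells and 3 from the BT-549/control cells that were prepared for them, and was chosen by these labels alone. Both lines carried a stable short hairpin RNA (shRNA), directed against IRF1 or used as a control, both carried puromycin resistance, and both were grown in serum-containing RPMI with insulin. The study asked how the MUC1-C protein and the chromatin remodeler PBRM1 act through IRF1 in inflammation of TNBC cells, and the other 12 libraries come from PBRM1 silencing in BT-549 cells and inducible MUC1 silencing in MDA-MB-436 cells. The labels name 1 shRNA against IRF1 and 3 replicates of each line, which the study's methods give as triplicate cultures, so the tests measure the spread among cultures of 1 line per group, and an effect of the hairpin other than on IRF1 cannot be told apart from the loss of IRF1.

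IRF1 is a transcription factor that is induced by interferon (IFN) and binds the IFN-stimulated response element (ISRE), a sequence built from repeats of GAAA, in the promoters of antiviral, antigen-processing and cell death genes. Type I IFNs activate many of the same promoters through a complex that contains STAT2 and IRF9, whereas IFN-gamma acts mainly through another element. In tumors, chronic low-level expression of IFN-stimulated genes has been tied to resistance to DNA-damaging therapy, and IFN-driven IDO1, which degrades tryptophan, to immune evasion.

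Values are TPM, a measure of transcript abundance that is corrected for transcript length and scaled to 1 total per library, here rescaled to a total of 1000000 after short noncoding RNAs were left out. These RNAs held 86.3% to 88.5% of the deposited TPM in IRF1shRNA libraries and 84.8% to 87.9% in control libraries (exact two-sided permutation test, p = 0.5, smallest possible 0.1). Genes with at least 1 rescaled TPM numbered 12534 to 12650 in IRF1shRNA and 12503 to 12606 in control libraries, and libraries correlated across genes at 0.996 to 0.998 within a group and at 0.972 to 0.976 between groups. TPM keeps no read depth, which is unknown for single libraries. The authors' mean normalized counts, a value over all 6 libraries, had a median of 1941 among tested genes. The mesenchymal markers VIM, FN1, ZEB1 and CDH2 were present in every library, and the epithelial markers CDH1 and EPCAM and the luminal markers ESR1, PGR, GATA3 and FOXA1 stayed under 1 TPM in every library. Of 18 leukocyte and erythroid markers 16 were under 1 TPM in every library, PTPRC and CD3E included, and the summed level of the 18 was 50.3 to 52.9 TPM in IRF1shRNA and 61.3 to 67.8 TPM in control libraries, nearly all of it CD68. The other leukocyte marker tested, CD14, went the opposite way, at 2.82, 3.196 and 2.88 TPM in IRF1shRNA cells, against 1.39, 1.32 and 1.55 TPM in control cells (log2 fold change 0.71, adjusted p = 9.16e-06). Endothelial markers summed to 4.96 to 5.53 TPM in IRF1shRNA and 5.87 to 6.55 TPM in control libraries, and of 10 only ROBO4 was tested. In these bulk libraries, fewer expressing cells and less RNA per cell cannot be told apart.

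IRF1 itself, at chromosome 5, 132481609 to 132490773 in GRCh38.p14, was measured at 8.94, 9.51 and 10.2 TPM in IRF1shRNA cells, against 34.3, 35.3 and 37.4 TPM in control cells. All 3 silenced cultures were below every control culture, and on average 26.8% of the control level remained (log2 fold change -1.799 ± 0.06 (SE), adjusted p = 3.28e-10). The labels therefore match the targeted gene. The hairpin sequence was not analysed here. PBRM1 averaged 54.7 ± 1.802 TPM in IRF1shRNA cells and 49.8 ± 3.21 TPM in control cells (log2 fold change 0.13, adjusted p = 4.49e-02), a difference that missed the threshold in 8 of 19 alternative analyses. MUC1, at chromosome 1, 155185824 to 155192915, averaged 52.9 ± 2.53 TPM in IRF1shRNA cells and 52.2 ± 4.64 TPM in control cells (adjusted p = 7.86e-01).

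**Figure D1:**
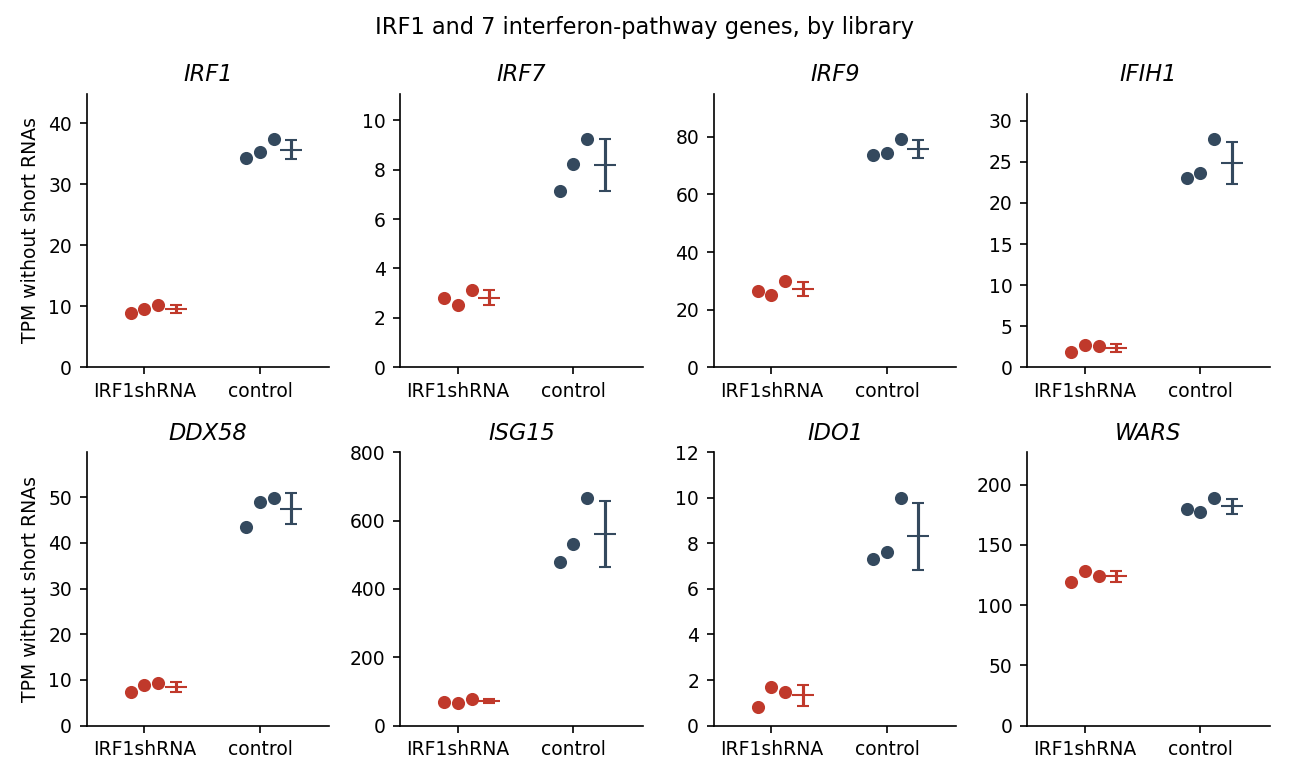
Rescaled TPM of IRF1 and 7 IFN-pathway genes in each library, IRF1shRNA at left and control at right in each panel. Points are libraries, and the bar beside them is the mean ± SD of 3; in all 8 panels the IRF1shRNA points lie below the control points, closest together for WARS.

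Silencing of IRF1 was associated mainly with losses among the large changes. Of 12729 tested genes, 332 were called lower in IRF1shRNA cells (adjusted p under 0.05 and a log2 fold change below -1) and 82 were called higher, or 2.61% and 0.644% of the genes tested. The asymmetry grew with size, in that 54 genes fell by more than 2 on the log2 scale and 17 by more than 3, against 2 and 0 that rose so far. Small differences were far more common, and adjusted p alone passed in 29.4% of genes in the lower direction and 35.3% in the higher direction, with a median log2 fold change of 0.03 over all genes. The groups did not overlap for 68.5% of tested genes, so an adjusted p or non-overlap alone says little about a single gene here. The call with its fold limit is used below. Of the called genes, 330 of the 332 lower and all 82 higher had no overlap, so non-overlap adds little to a call. Counts within the gene lists below are to be read beside these shares over all genes, and a short list without a call says little. Of the genes called lower, 40 passed the filter on low values only through the control libraries, and 17 of those called higher only through the IRF1shRNA libraries. With the short noncoding RNAs left in the columns as deposited, 9135 genes were tested and the split was 163 lower and 5 higher.

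**Figure D2:**
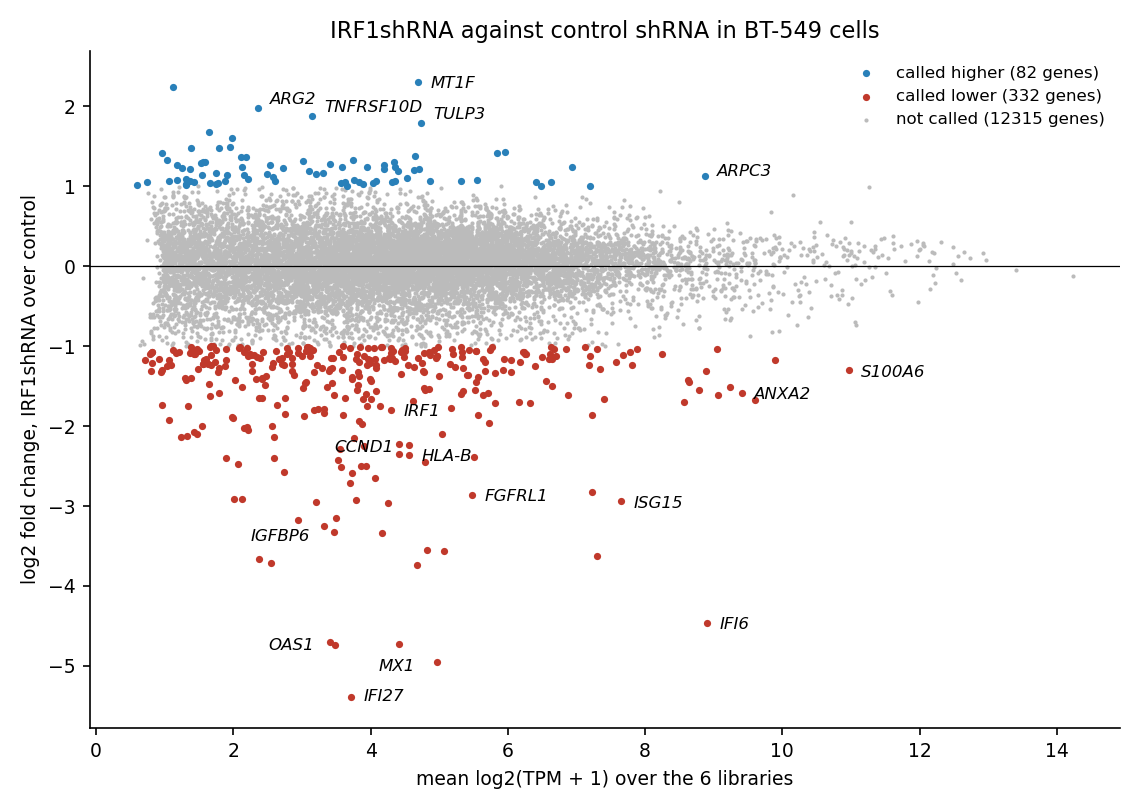
Log2 fold change of each tested gene, IRF1shRNA over control (y axis), against its mean log2(TPM + 1) over the 6 libraries (x axis). The 332 genes called lower (red) reach -5.39 at IFI27, whereas the 82 called higher (blue) reach 2.31 at MT1F; grey genes were not called.

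Of the genes called lower, 79 belonged to a list of IFN-related genes and 253 did not, and none of those called higher belonged to one. The lists held 144 of the 12729 tested genes. They were chosen with earlier results of these data known, so these counts describe the calls and give no independent support. The 10 most lowered genes were all on these lists, as were 19 of the 20 most lowered. IRF1 itself ranked behind 69 genes with a more negative log2 fold change, 50 of them on the lists.

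Several transcription factors that carry the IFN signal were lower together with IRF1. IRF9, the DNA-binding partner of STAT2, was at 26.6, 25.03 and 29.9 TPM in IRF1shRNA cells, against 73.6, 74.3 and 79.2 TPM in control cells (log2 fold change -1.45 ± 0.06 (SE), adjusted p = 3.42e-09). STAT2 fell by 0.90 on the log2 scale, short of a call. IRF7, the factor that amplifies type I IFN production, averaged 2.82 ± 0.308 TPM in IRF1shRNA cells and 8.19 ± 1.06 TPM in control cells (log2 fold change -1.26). IRF2, which binds the same element as IRF1 and can oppose it, averaged 24.4 ± 1.58 TPM in IRF1shRNA cells and 28.6 ± 0.893 TPM in control cells, and IRF3, the factor activated by nucleic acid sensors, 82.5 ± 2.29 TPM in IRF1shRNA cells and 91.6 ± 1.28 TPM in control cells. The IRF family list of 12 genes also holds IRF2BP2 and IRF2BPL, genes of the IRF2-binding protein family that do not encode IRF factors. Of the list 8 were tested and 7 had an adjusted p under 0.05 in the lower direction, 3 of them called (IRF1, IRF9 and IRF7). These 7 include IRF2BP2 (log2 fold change -0.41), IRF2BPL (-0.29) and IRF1 itself, the target of the hairpin. With the deposited columns 4 were lower by adjusted p. Of the 4 tested genes counted on the STAT list 2 were lower and 1 was higher by adjusted p and none was called, STAT3, which carries signals of IL-6 family cytokines, having a log2 fold change of 0.18 (adjusted p = 2.62e-03).

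The receptors and kinases upstream of these factors changed little. IFNAR1 and IFNAR2, which together form the type I IFN receptor, averaged 32.4 ± 0.618 TPM in IRF1shRNA cells and 30.1 ± 1.98 TPM in control cells for IFNAR1 and 20.9 ± 0.206 TPM in IRF1shRNA cells and 20.6 ± 0.398 TPM in control cells for IFNAR2, and neither passed the test (adjusted p = 1.02e-01 for IFNAR1 and 7.96e-01 for IFNAR2). JAK1 had a log2 fold change of 0.21, TYK2 of 0.12, IFNGR1 of 0.27 and IFNGR2 of -0.32. None of the 8 tested receptor and kinase genes was called. Of 10 IFN ligand genes, IFNE alone passed the filter on low values, at 2.19 ± 0.0711 TPM in IRF1shRNA cells and 2.08 ± 0.348 TPM in control cells, and IFNB1 and IFNG were not tested. Among 13 negative regulators of JAK-STAT signaling, USP18, which removes ISG15 from proteins and blocks IFNAR2, averaged 1.74 ± 0.223 TPM in IRF1shRNA cells and 15.4 ± 2.44 TPM in control cells and was the 1 call (log2 fold change -2.57 ± 0.10 (SE), adjusted p = 1.78e-09). SOCS1 and SOCS3, feedback inhibitors of the JAK kinases, had log2 fold changes of -0.35 and -0.15.

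The sensors of cytosolic double-stranded RNA were among the lowered genes. IFIH1, which encodes MDA5, was at 1.82, 2.71 and 2.52 TPM in IRF1shRNA cells, against 23.1, 23.7 and 27.8 TPM in control cells (log2 fold change -2.95 ± 0.10 (SE), adjusted p = 4.41e-10). DDX58, which encodes RIG-I, was at 7.31, 8.88 and 9.33 TPM in IRF1shRNA cells, against 43.5, 48.9996 and 49.9 TPM in control cells (log2 fold change -2.35 ± 0.08 (SE), adjusted p = 4.54e-10). Neither gene had overlapping groups, as was the case for 330 of the 332 genes called lower. The helicase-like DDX60 had a log2 fold change of -2.395, DHX58, which encodes the regulator LGP2, of -1.48, the kinase gene EIF2AK2 (PKR) of -1.39, and the endosomal receptor gene TLR3 of -1.25. All 10 sensor genes on the list were tested and all 10 had an adjusted p under 0.05 in the lower direction. Of these 7 were called, and the list median was -1.43 against 0.03 over all genes. DHX58 and TLR3 passed the filter only through the control libraries. MAVS, the adaptor that MDA5 and RIG-I both use, averaged 35.99 ± 0.744 TPM in IRF1shRNA cells and 40.3 ± 1.08 TPM in control cells, a log2 fold change of -0.16. Among 12 DNA-sensing genes SAMHD1, a dNTP hydrolase, was the 1 call (log2 fold change -1.33); TMEM173, which encodes STING, fell by 0.97 on the log2 scale and CGAS, the cyclic GMP-AMP synthase, by 0.70, and the kinase TBK1 had 0.05 (adjusted p = 4.88e-01).

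The type I IFN-stimulated genes showed the deepest losses. Of 76 genes on this list 73 were tested, 71 of them were lower by adjusted p and 53 were called lower, with a median log2 fold change of -1.87. NUB1 was the 1 member with an adjusted p under 0.05 in the higher direction (0.17), and 9 members passed the filter only through the control libraries. With the deposited columns 61 were tested, 60 of them lower and 43 called. Summed over the list, the genes held 2616 to 2931 TPM in IRF1shRNA libraries, against 8546 to 10339 TPM in control libraries. IFI6, a mitochondrial and endoplasmic reticulum protein that restrains cell death and viral replication, took the largest share of that difference. It was at 92.6, 100.02 and 113 TPM in IRF1shRNA cells, against 2065, 2185 and 2532 TPM in control cells, a 22.2-fold lower mean (log2 fold change -4.46 ± 0.08 (SE), adjusted p = 6.28e-12).

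IFI27, another small mitochondrial IFN-induced protein, had the most negative log2 fold change of all genes. Its level was 0.884, 1.095 and 1.09 TPM in IRF1shRNA cells, against 77.6, 78.6 and 96.4 TPM in control cells, or 1.02 ± 0.122 against 84.2 ± 10.6 (mean ± SD, n = 3; log2 fold change -5.39 ± 0.08 (SE), adjusted p = 2.38e-12). MX1, a dynamin-like GTPase that blocks viral nucleocapsids, was at 3.49, 4.902 and 5.68 TPM with the IRF1 hairpin, against 144, 177 and 203 TPM with the control hairpin (log2 fold change -4.95 ± 0.14 (SE), adjusted p = 9.44e-11). BST2, the tetherin that holds budding virions at the cell surface, was at 2.68, 3.62 and 3.16 TPM with the IRF1 hairpin, against 93.8, 99.7 and 136 TPM with the control hairpin (log2 fold change -4.73 ± 0.12 (SE), adjusted p = 5.15e-11). In each of these genes the 3 silenced cultures lay far below the lowest control culture, and the third control culture was the highest of the controls for all of them.

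OAS1, OAS2 and OAS3 lie next to each other on chromosome 12 and encode antiviral enzymes that double-stranded RNA switches on to make short oligoadenylates. OAS1 was at 0.8701, 1.28 and 1.33 TPM in IRF1shRNA cells, against 47.5, 58.5 and 65.3 TPM in control cells (log2 fold change -4.74 ± 0.11 (SE), adjusted p = 3.04e-11). OAS2 averaged 1.09 ± 0.198 TPM in IRF1shRNA cells and 53.6 ± 8.297 TPM in control cells (log2 fold change -4.702), and OAS3 averaged 6.03 ± 0.868 TPM in IRF1shRNA cells and 92.4 ± 9.75 TPM in control cells (log2 fold change -3.73). Each of the 4 tested genes of this family was called lower. RSAD2, the radical SAM enzyme viperin, averaged 0.614 ± 0.0916 TPM in IRF1shRNA cells and 20.4 ± 4.16 TPM in control cells, and IFI44L, a paralog of IFI44, averaged 0.464 ± 0.142 TPM in IRF1shRNA cells and 17.6 ± 2.896 TPM in control cells. Both passed the filter only through the control libraries, where all 3 values were above those of the silenced cultures. Next in order were IFITM1, which bars viral entry at membranes (43.9 ± 5.21 TPM in IRF1shRNA cells and 557 ± 95.5 TPM in control cells), IFI44 (8.91 ± 1.61 TPM in IRF1shRNA cells and 115 ± 9.38 TPM in control cells) and LGALS3BP, a secreted galectin-binding glycoprotein (7.26 ± 0.3895 TPM in IRF1shRNA cells and 96.6 ± 13.2 TPM in control cells). IFIT1, which binds foreign RNA caps, and IFIT3, of the same family, had log2 fold changes of -3.15 and -3.34. IFITM2, a close homolog of IFITM1, had -0.08 and did not pass the test (adjusted p = 5.36e-01); reads that fit both genes could be divided between them by the authors' counting.

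**Figure D3:**
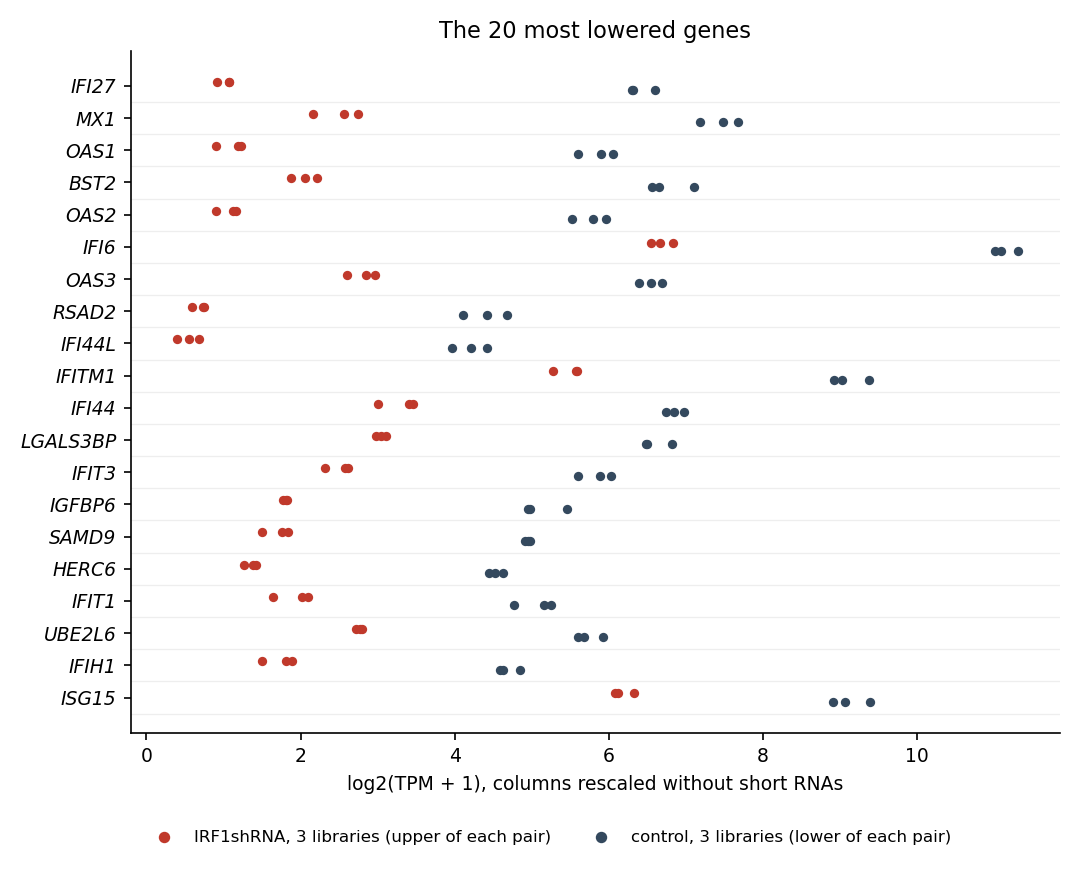
Log2(TPM + 1) of the 20 genes with the most negative log2 fold change among those called with no overlap, most negative at the top, with the 3 IRF1shRNA libraries above the 3 control libraries in each row. The groups are widely separated in every row, and IFI6 has the highest control level.

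ISG15 and the enzymes that attach it moved together. ISG15, a ubiquitin-like modifier at chromosome 1, 1013497 to 1014540, was at 68.6, 66.9 and 79.02 TPM in IRF1shRNA cells, against 479, 533 and 667 TPM in control cells (log2 fold change -2.94 ± 0.10 (SE), adjusted p = 4.21e-10). The control value was highest in the third culture, and the lowest control was still above every silenced culture. UBE2L6, the conjugating enzyme for ISG15, had a log2 fold change of -2.97, and the ligase-family genes HERC6 and HERC5 had -3.17 and -1.87. All 7 genes on the ISG15 list were lower by adjusted p and 5 were called. UBA7, on this list, passed the filter only through the control libraries. Of an IFN-related DNA damage resistance signature, 6 genes are described here (MX1, ISG15, OAS1, IFIT1, IFIT3 and IFI44), and all 6 were called lower, with a median log2 fold change of -3.45. Their summed level was 86.1 to 104 TPM in IRF1shRNA libraries and 851 to 1162 TPM in control libraries. The study examined these genes in this model, so the list is not independent of these samples.

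Promoters of the most lowered genes are shown because they hold, or lack, a match to 1 fixed spacing of the element that IRF1 and the STAT2-IRF9 complex bind. The sequences are the 250 bases before the transcription start in RefSeq (GRCh38.p14), written 5′ to 3′ on the strand of the gene, with each match of GAAANNGAAA on either strand in capitals (a match on the other strand reads TTTCNNTTTC). The windows searched also held the 50 bases after the start.
IFI27, chr14:94110486-94110735, plus strand: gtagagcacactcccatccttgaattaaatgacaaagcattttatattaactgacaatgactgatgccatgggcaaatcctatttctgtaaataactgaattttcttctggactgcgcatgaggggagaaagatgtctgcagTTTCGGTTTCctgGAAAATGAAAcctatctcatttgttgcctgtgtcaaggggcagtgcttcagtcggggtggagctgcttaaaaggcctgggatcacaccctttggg
MX1, chr21:41431800-41432049, plus strand: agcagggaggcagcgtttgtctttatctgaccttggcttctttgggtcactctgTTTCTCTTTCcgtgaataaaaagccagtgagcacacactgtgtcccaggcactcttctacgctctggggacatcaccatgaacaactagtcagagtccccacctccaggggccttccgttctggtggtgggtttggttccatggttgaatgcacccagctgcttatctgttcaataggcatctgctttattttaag
BST2, chr19:17405631-17405880, minus strand: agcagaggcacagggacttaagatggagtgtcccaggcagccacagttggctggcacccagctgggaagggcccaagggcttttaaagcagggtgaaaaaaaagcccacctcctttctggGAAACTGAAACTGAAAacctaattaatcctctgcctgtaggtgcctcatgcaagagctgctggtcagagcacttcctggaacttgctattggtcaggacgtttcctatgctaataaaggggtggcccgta
IFI6, chr1:27672193-27672442, minus strand: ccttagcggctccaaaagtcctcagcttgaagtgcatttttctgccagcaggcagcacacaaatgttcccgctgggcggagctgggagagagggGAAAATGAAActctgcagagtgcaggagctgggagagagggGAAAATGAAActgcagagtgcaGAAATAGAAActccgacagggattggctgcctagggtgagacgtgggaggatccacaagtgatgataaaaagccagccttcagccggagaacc
OAS3, chr12:112938224-112938473, plus strand: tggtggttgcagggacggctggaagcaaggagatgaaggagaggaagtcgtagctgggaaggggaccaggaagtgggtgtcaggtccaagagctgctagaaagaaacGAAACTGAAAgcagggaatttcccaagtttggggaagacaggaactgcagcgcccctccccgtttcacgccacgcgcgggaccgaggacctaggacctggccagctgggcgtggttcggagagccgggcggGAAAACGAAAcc
OAS1, chr12:112906712-112906961, plus strand: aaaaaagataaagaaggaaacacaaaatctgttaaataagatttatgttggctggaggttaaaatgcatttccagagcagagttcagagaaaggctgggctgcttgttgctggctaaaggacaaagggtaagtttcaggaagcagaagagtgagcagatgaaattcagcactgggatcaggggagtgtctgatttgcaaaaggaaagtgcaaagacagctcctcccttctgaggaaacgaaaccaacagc
IGFBP6, chr12:53097417-53097666, plus strand: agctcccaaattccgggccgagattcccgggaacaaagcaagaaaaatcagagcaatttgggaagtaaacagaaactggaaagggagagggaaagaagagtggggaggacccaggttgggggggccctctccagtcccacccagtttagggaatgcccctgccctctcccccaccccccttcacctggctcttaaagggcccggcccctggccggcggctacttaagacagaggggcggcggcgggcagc
The IFI27 window holds 2 matches, on opposite strands and beginning 108 and 95 bases before the start. In BST2 the matches at 130 and 124 bases before the start overlap and form 3 successive GAAA copies, and the IFI6 window holds 3 matches. The MX1 window shown is 1 of 3 alternative starts in the table and the IFI27 window 1 of 2, and both lie inside the annotated gene, downstream of its first base. Each was printed because it was the first of the gene's windows to hold a match. The OAS1 and IGFBP6 windows hold no match with this spacing, although both contain copies of GAAA. In the OAS1 window 2 of these copies lie 1 base apart, a spacing that the search did not cover. The lack of a match therefore does not show that the element is absent. Of the 20 most lowered genes 19 had a promoter in the table, and 15 of these 19 (78.9%) held the motif in at least 1 window, whereas 3.57% of all 35116 promoter windows in the table did. The GAS-type element TTCNNNGAA, which is tied to IFN-gamma signaling and reads the same on both strands, occurred in 5 of the 19 genes and in 7.66% of all windows, again in unlike units. Over all genes called lower 238 of 332 (71.7%) could be matched, and over all tested genes 79.3%, both under the 80% set as a minimum, so a motif share over those sets is void and is not given. A match describes the letters of the window only.

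The genes that process and present antigen on MHC class I were lower in most of their members. HLA-B was at 8.77, 9.38 and 10.1 TPM in IRF1shRNA cells, against 48.4, 49.2 and 60.5 TPM in control cells (log2 fold change -2.36 ± 0.08 (SE), adjusted p = 4.53e-10). B2M, the light chain shared by all class I molecules, was at 303, 295 and 304 TPM in IRF1shRNA cells, against 745, 722 and 767 TPM in control cells (log2 fold change -1.31 ± 0.04 (SE), adjusted p = 2.10e-10). Neither had overlapping groups, like 330 of the 332 genes called lower. HLA-C had a log2 fold change of -1.601 and HLA-E of -1.14, and reads shared among these near-identical genes make the division between them uncertain. TAP1, a subunit of the peptide transporter, averaged 1.91 ± 0.167 TPM in IRF1shRNA cells and 8.15 ± 0.499 TPM in control cells, and TAPBP, the tapasin that joins it to class I molecules, had a log2 fold change of -1.22. The transactivator gene NLRC5 had -0.92. Of 14 tested genes 11 were lower by adjusted p, 8 of them called. The general chaperones CALR (0.25) and PDIA3 (0.38) were higher by adjusted p. ERAP2, also on the list, passed the filter only through the control libraries. With the deposited columns 11 were tested, 8 of them lower and 0 higher. The summed level of the list hardly moved (4025 to 4119 TPM in IRF1shRNA and 4174 to 4191 TPM in control libraries), since it includes the abundant chaperones CALR, PDIA3 and CANX.

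The proteasome divided along the same line. PSMB9 and PSMB8, inducible catalytic subunits encoded beside TAP1, averaged 0.315 ± 0.0414 TPM in IRF1shRNA cells and 4.55 ± 0.614 TPM in control cells for PSMB9 and 1.28 ± 0.142 TPM in IRF1shRNA cells and 8.42 ± 0.689 TPM in control cells for PSMB8. All 5 tested immunoproteasome genes (PSMB8, PSMB9, PSMB10, PSME1 and PSME2) were lower by adjusted p and 4 were called, PSMB9 having passed the filter only through the control libraries, with a summed level of 207 to 218 TPM in IRF1shRNA and 506 to 525 TPM in control libraries. Of the constitutive subunits, PSMB5 (0.19) and PSMB7 (0.35) were higher by adjusted p, though not with the deposited columns, and PSMB6 had 0.08 (adjusted p = 1.28e-01). Their summed level was 1727 to 1806 TPM in IRF1shRNA and 1508 to 1521 TPM in control libraries.

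Genes of the IFN-gamma response were lower too. GBP1, a guanylate-binding GTPase, averaged 4.01 ± 0.266 TPM in IRF1shRNA cells and 36.9 ± 2.56 TPM in control cells (log2 fold change -2.92 ± 0.07 (SE), adjusted p = 2.84e-11). RARRES3, a phospholipase that restrains growth, averaged 0.788 ± 0.239 TPM in IRF1shRNA cells and 8.97 ± 1.81 TPM in control cells, and IFI30, a lysosomal thiol reductase for antigen, 19.02 ± 3.15 TPM in IRF1shRNA cells and 103 ± 7.403 TPM in control cells. APOL1, an ion channel-forming apolipoprotein, had a log2 fold change of -2.13. Of 51 genes on the list 35 were tested, 31 of them lower by adjusted p and 14 called, with a median of -0.89, and 8 of the 35 passed the filter only through the control libraries. Without 1 control library these 8 were no longer tested, and 10 of 27 genes were called with a median of -0.52 to -0.57. With the deposited columns 7 of 18 were called. CIITA, the class II transactivator, averaged 0.499 ± 0.0839 TPM in IRF1shRNA cells and 1.78 ± 0.3003 TPM in control cells and CD74, the invariant chain, 0.555 ± 0.106 TPM in IRF1shRNA cells and 2.05 ± 0.521 TPM in control cells. The class II HLA genes did not pass the filter. The butyrophilins BTN3A1, BTN3A2 and BTN3A3, which present phosphoantigen signals to gamma-delta T cells and were picked out after their values were seen, had log2 fold changes of -1.16, -1.101 and -1.31.

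IDO1, the enzyme that opens the kynurenine route of tryptophan breakdown, was expressed at a low level. It was at 0.8104, 1.69 and 1.48 TPM in IRF1shRNA cells, against 7.297, 7.62 and 10.005 TPM in control cells (log2 fold change -2.01 ± 0.14 (SE), adjusted p = 1.97e-07). The groups did not overlap, as in 330 of the 332 genes called lower. WARS, the tryptophanyl-tRNA synthetase, was at 119.6, 129 and 124 TPM in IRF1shRNA cells, against 179, 177 and 189 TPM in control cells (log2 fold change -0.55 ± 0.05 (SE), adjusted p = 7.06e-07), a difference that passed the test but lay under the fold limit. KYNU and KMO, later enzymes of the route, had log2 fold changes of -0.83 and -0.89. Of 13 tested genes of tryptophan metabolism 8 were lower and 3 higher by adjusted p, and IDO1 was the only call. QPRT, 1 of the 8 lower, passed the filter only through the control libraries. With the deposited columns 8 genes were tested, 4 of them lower and 0 called. Among 13 tested immune checkpoint ligands none was called. CD274, which encodes PD-L1, averaged 2.21 ± 0.102 TPM in IRF1shRNA cells and 2.79 ± 0.364 TPM in control cells (log2 fold change -0.23, adjusted p = 3.15e-02), and CD276 had -0.56.

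Few cytokines were expressed. Of 40 listed genes 15 were tested, and CCL5, a T cell-attracting chemokine (5.13 ± 0.618 TPM in IRF1shRNA cells and 33.7 ± 4.403 TPM in control cells), IL6, a pro-inflammatory cytokine (13.9 ± 0.931 TPM in IRF1shRNA cells and 30.5 ± 1.85 TPM in control cells), and IL7, a lymphoid growth factor (0.839 ± 0.11996 TPM in IRF1shRNA cells and 2.84 ± 0.236 TPM in control cells), were called lower, IL7 having passed the filter only through control libraries. IL32, an inflammatory mediator, was called higher at 3.95 ± 0.6197 TPM in IRF1shRNA cells and 1.4003 ± 0.355 TPM in control cells, a call that was lost without IRF1shRNA replicate 2, without control replicate 3, with array weights and with a pseudocount of 5. CXCL10 and CXCL11, both classic IFN-induced chemokines, did not pass the filter. None of 18 tested NF-kB subunits and regulators was called, with 5 lower and 5 higher by adjusted p. Over all tested genes 29.4% were lower and 35.3% higher by adjusted p and 2.61% were called lower, so these counts say little about the list.

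Death receptor genes moved in both directions. TNFRSF10D, a decoy receptor that binds the death ligand TRAIL without signaling, was at 16.4, 16.1 and 15.4 TPM in IRF1shRNA cells, against 3.82, 3.82 and 3.18 TPM in control cells (log2 fold change 1.88 ± 0.07 (SE), adjusted p = 8.90e-10). TNFRSF10A, a signaling TRAIL receptor, was at 2.35, 2.39 and 2.32 TPM in IRF1shRNA cells, against 5.95, 6.65 and 6.13 TPM in control cells (log2 fold change -1.11 ± 0.07 (SE), adjusted p = 6.67e-08). For both genes the groups did not overlap, which held for all 82 genes called higher and 330 of the 332 called lower. TNFRSF10C, a second decoy, averaged 1.16 ± 0.229 TPM in IRF1shRNA cells and 0.0667 ± 0.058003 TPM in control cells and passed the filter only through the IRF1shRNA libraries, and its call (log2 fold change 1.02) was lost without control replicate 2 or control replicate 3. XAF1, an IFN-induced antagonist of the caspase inhibitor XIAP, averaged 8.89 ± 0.911 TPM in IRF1shRNA cells and 45.02 ± 1.62 TPM in control cells (log2 fold change -2.22), and the BH3-only gene PMAIP1 (NOXA) had -1.198. CASP8, an initiator caspase, had a log2 fold change of -0.58 and was not called, and CASP9, another initiator, had 0.72. Over the list, 15 of 25 tested genes were lower and 8 higher by adjusted p (5 higher without IRF1shRNA replicate 1 or IRF1shRNA replicate 3), with 3 called lower and 2 called higher. By adjusted p alone, 29.4% of all tested genes were lower and 35.3% higher.

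**Figure D4:**
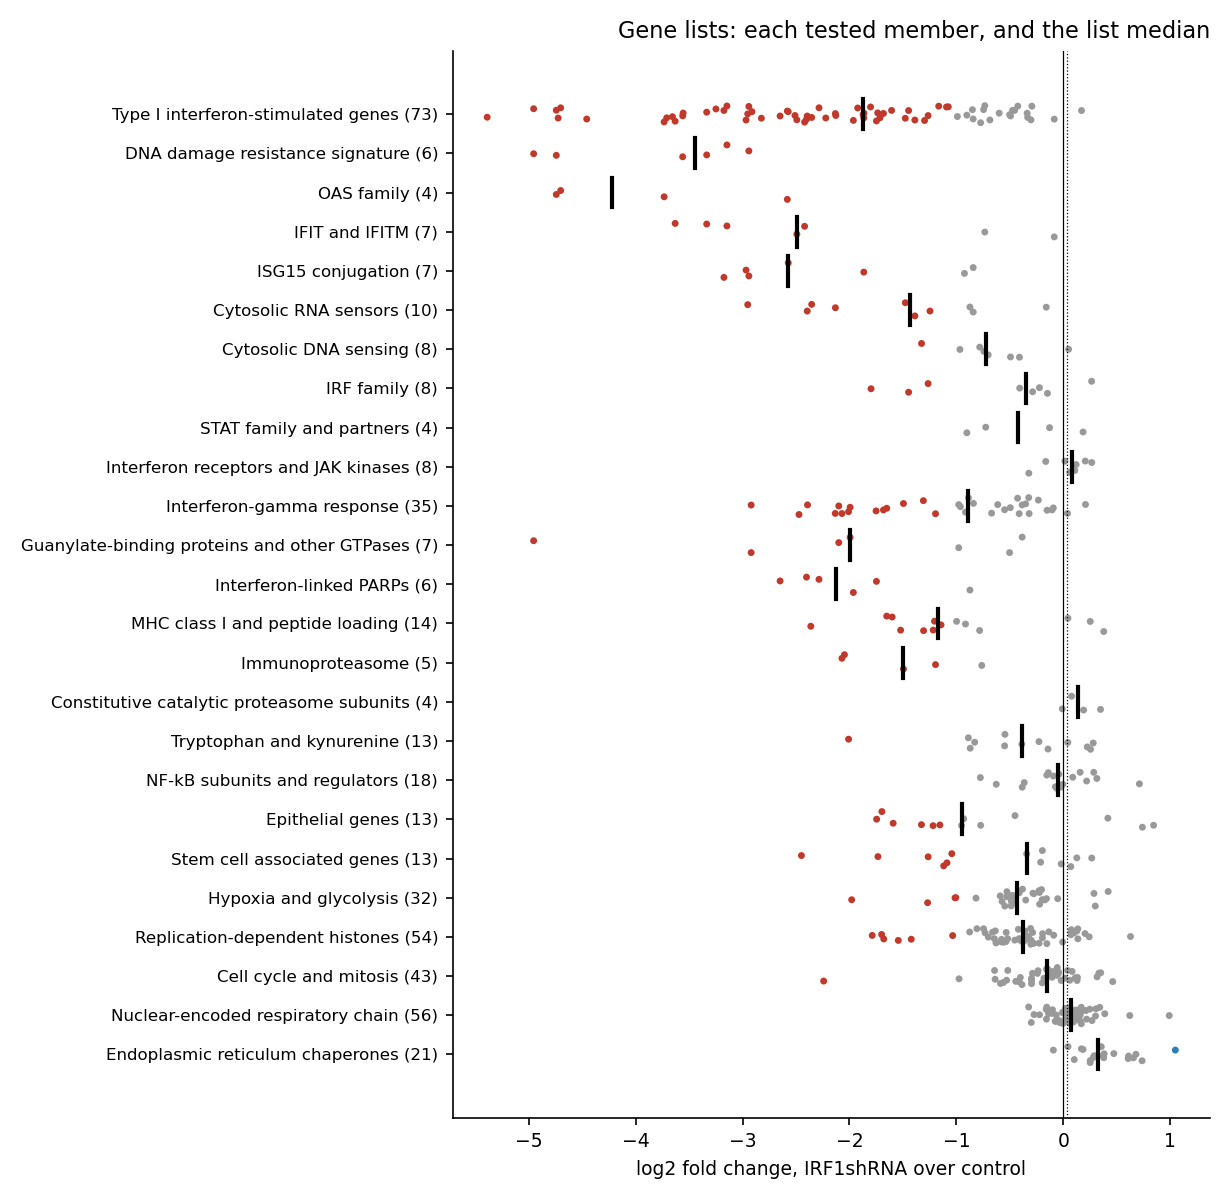
Log2 fold change of every tested member (points) of 25 gene lists, with the number of tested members in brackets and the list median as a black bar; red points were called lower and blue points higher, the solid line marks 0 and the dotted line the median of all genes. IFN-related lists reach medians of -4.22 (OAS family) and -1.87 (type I IFN-stimulated genes), whereas the IFN receptor, NF-kB and respiratory chain lists lie near 0.

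Most of the genes called lower were on none of the IFN-related lists, and several of them were abundant. IGFBP6, a binding protein for insulin-like growth factor II, was the 1 gene of the 20 most lowered that was on no list. It was at 2.43, 2.53 and 2.504 TPM in IRF1shRNA cells, against 30.02, 30.5 and 42.97 TPM in control cells (log2 fold change -3.33 ± 0.11 (SE), adjusted p = 3.28e-10). CCND1, the cyclin that starts the G1 phase, was at 10.5, 9.54 and 9.51 TPM in IRF1shRNA cells, against 52.2, 54.3 and 44.995 TPM in control cells (log2 fold change -2.24 ± 0.07 (SE), adjusted p = 2.58e-10). It was the only call among 43 tested cell cycle genes, where 2.61% of all tested genes were called lower. DUSP4, a phosphatase that acts on ERK, averaged 5.87 ± 0.139 TPM in IRF1shRNA cells and 31.6 ± 1.79 TPM in control cells (log2 fold change -2.25), and 3 of 19 ERK feedback genes were called lower. TGFBI, a matrix adhesion protein induced by TGF-beta, averaged 78.2 ± 7.13 TPM in IRF1shRNA cells and 286 ± 10.6 TPM in control cells (log2 fold change -1.86).

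The following genes were picked out after their values were seen. FGFRL1, an FGF receptor without a kinase domain, was at 15.1, 14.9 and 16.997 TPM in IRF1shRNA cells, against 116, 121 and 123 TPM in control cells (log2 fold change -2.86 ± 0.06 (SE), adjusted p = 1.30e-11). ADAM19, a membrane metalloprotease, averaged 4.09 ± 0.299 TPM in IRF1shRNA cells and 32.4 ± 1.73 TPM in control cells (log2 fold change -2.71). S100A10 and ANXA2 encode the partners of a single membrane complex that captures plasminogen, and both were called lower: S100A10 averaged 304 ± 9.57 TPM in IRF1shRNA cells and 931 ± 21.8 TPM in control cells and ANXA2 393 ± 18.5 TPM in IRF1shRNA cells and 1175 ± 12.7 TPM in control cells. The pseudogene ANXA2P2, which is nearly identical to ANXA2, had a log2 fold change of -1.54 beside -1.58 for its parent, and reads shared by the pair are uncertain. S100A6, a calcium-binding protein, was the most abundant of them, at 1276 ± 27.9 TPM in IRF1shRNA cells and 3157 ± 239 TPM in control cells (log2 fold change -1.304). MDK, the heparin-binding growth factor midkine, averaged 358 ± 10.8 TPM in IRF1shRNA cells and 1023 ± 37.8 TPM in control cells, and HSPB1, the small heat shock protein HSP27, 638 ± 65.2 TPM in IRF1shRNA cells and 1432 ± 111 TPM in control cells.

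Several keratin and junction genes that remain in these mesenchymal cells were called lower, most of them at small absolute levels. KRT7 averaged 38.8 ± 2.62 TPM in IRF1shRNA cells and 128 ± 3.704 TPM in control cells, KRT81 0.995 ± 0.176 TPM in IRF1shRNA cells and 4.997 ± 0.167 TPM in control cells and JUP, the plakoglobin of cell junctions, 4.71 ± 0.314 TPM in IRF1shRNA cells and 13.3 ± 0.689 TPM in control cells. KRT17 averaged 0.3896 ± 0.123 TPM in IRF1shRNA cells and 3.66 ± 0.343 TPM in control cells and passed the filter only through the control libraries. Of 31 epithelial genes 13 were tested, with 10 lower and 3 higher by adjusted p and 6 called lower, among them DSP, which encodes desmoplakin and like KRT17 and KRT8 passed the filter only through the control libraries. The count of calls was 1 of 6 tested genes with the deposited columns, 1 with a pseudocount of 5, 2 with a mean of at least 5 TPM, 9 with a pseudocount of 0.1, and 4 without control replicate 1 or without control replicate 2. In the other direction OCLN, which encodes occludin, had a log2 fold change of 0.84 and CLDN3, a claudin, of 0.42. Among 13 tested stem cell-associated genes 6 were called lower, led by CD24, a surface glycoprotein (10.9 ± 0.478 TPM in IRF1shRNA cells and 63.9 ± 2.38 TPM in control cells), and PROCR, the protein C receptor (2.42 ± 0.158 TPM in IRF1shRNA cells and 10.4 ± 0.563 TPM in control cells). CD44 and MYC had log2 fold changes of -0.21 and -0.195. A place on this list does not say in which direction a gene goes with the stem cell state, which was not tested. Of 46 tested mesenchymal and matrix genes 4 were called lower, and VIM, the main mesenchymal filament protein, had a log2 fold change of -0.47.

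Replication-dependent histone genes differed member by member. HIST1H1A averaged 4.38 ± 0.547 TPM in IRF1shRNA cells and 17.6 ± 2.04 TPM in control cells, HIST3H2BB 432 ± 13.6 TPM in IRF1shRNA cells and 1387 ± 84.8 TPM in control cells, HIST3H2A 209.6 ± 20.6 TPM in IRF1shRNA cells and 683 ± 64.8 TPM in control cells and HIST1H1D 239.9 ± 12.97 TPM in IRF1shRNA cells and 644 ± 6.76 TPM in control cells. Of 54 tested histone genes 40 were lower and 5 higher by adjusted p (3 higher without IRF1shRNA replicate 1 and 2 without control replicate 2), and 6 were called lower, with a median log2 fold change of -0.37. The histone list summed to 55170 to 61944 TPM in IRF1shRNA and 68495 to 73503 TPM in control libraries. Most histone transcripts lack a poly(A) tail and the labels name a kit for mRNA, yet short RNAs without such a tail held most of the deposited TPM, so how histone transcripts were captured is not known, and reads of these near-identical genes are uncertain. Of 32 tested hypoxia and glycolysis genes 27 were lower by adjusted p and 4 were called. CA9, the carbonic anhydrase induced by hypoxia, averaged 6.405 ± 1.102 TPM in IRF1shRNA cells and 28.2 ± 4.24 TPM in control cells (log2 fold change -1.98), PFKFB4, a regulator of glycolysis, had -1.27 and VEGFA, the endothelial growth factor, -1.005, a call that was lost in 6 of 19 alternatives, including those without IRF1shRNA replicate 1, IRF1shRNA replicate 2 or control replicate 1. GAPDH and LDHA, core glycolytic enzymes, had -0.28 and -0.45.

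The genes called higher were fewer, smaller in change and mostly of low expression, with a median control level of 3.46 TPM, compared with 19.2 TPM over all tested genes. MT1F, a metal-binding metallothionein, led them at 61.7, 47.2 and 63.01 TPM in IRF1shRNA cells, against 11.5, 10.7 and 9.78 TPM in control cells (log2 fold change 2.31 ± 0.10 (SE), adjusted p = 2.39e-09). The related MT1E and MT1X had log2 fold changes of 0.94 and 0.89 and MT2A of -0.45, and these genes share sequence. ARG2, the mitochondrial arginase, was at 8.88, 9.65 and 8.92 TPM in IRF1shRNA cells, against 1.76, 1.46 and 1.503 TPM in control cells (log2 fold change 1.98 ± 0.07 (SE), adjusted p = 8.26e-10). TULP3, which carries receptors into cilia, was at 45.97, 52.2 and 47.5 TPM in IRF1shRNA cells, against 13.8, 13.2 and 12.8 TPM in control cells (log2 fold change 1.79 ± 0.06 (SE), adjusted p = 2.64e-10). For these genes the silenced cultures all exceeded the controls. The noncoding RNA LINC00384 was listed at 0 in all 3 control libraries and at 2.31, 10.5 and 1.804 TPM in the IRF1shRNA libraries, with an authors' mean normalized count of 0.98, so this call rests on very few reads.

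Among the more abundant raised genes, CD82, a tetraspanin known to restrain metastasis, averaged 101 ± 4.05 TPM in IRF1shRNA cells and 36.8 ± 2.49 TPM in control cells (log2 fold change 1.43), and RABL6, a RAB-like GTPase, 92.7 ± 3.53 TPM in IRF1shRNA cells and 34.1 ± 1.73 TPM in control cells. UBE2D4, a ubiquitin-conjugating enzyme, averaged 39.4 ± 0.466 TPM in IRF1shRNA cells and 14.5 ± 0.589 TPM in control cells, and GFRA1, a receptor for GDNF, 20.2 ± 0.526 TPM in IRF1shRNA cells and 7.44 ± 0.651 TPM in control cells. SEMA7A, a membrane-anchored semaphorin, averaged 6.28 ± 0.472 TPM in IRF1shRNA cells and 1.85 ± 0.3804 TPM in control cells, and MMP9, a gelatinase, 3.63 ± 0.499 TPM in IRF1shRNA cells and 0.867 ± 0.138 TPM in control cells. The bicarbonate transporter SLC4A8 had a log2 fold change of 1.48 and RHCE, an Rh blood group protein that passed the filter only through the IRF1shRNA libraries, of 1.67. Picked out after their values were seen, ARPC3, a subunit of the actin-branching ARP2/3 complex, had the largest gain in TPM among genes called higher, at 712, 705 and 654 TPM in IRF1shRNA cells, against 316, 316 and 313 TPM in control cells (log2 fold change 1.13 ± 0.04 (SE), adjusted p = 1.09e-09), and GALNT10, which starts O-glycosylation, averaged 188 ± 7.51 TPM in IRF1shRNA cells and 78.5 ± 0.8503 TPM in control cells.

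**Figure D5:**
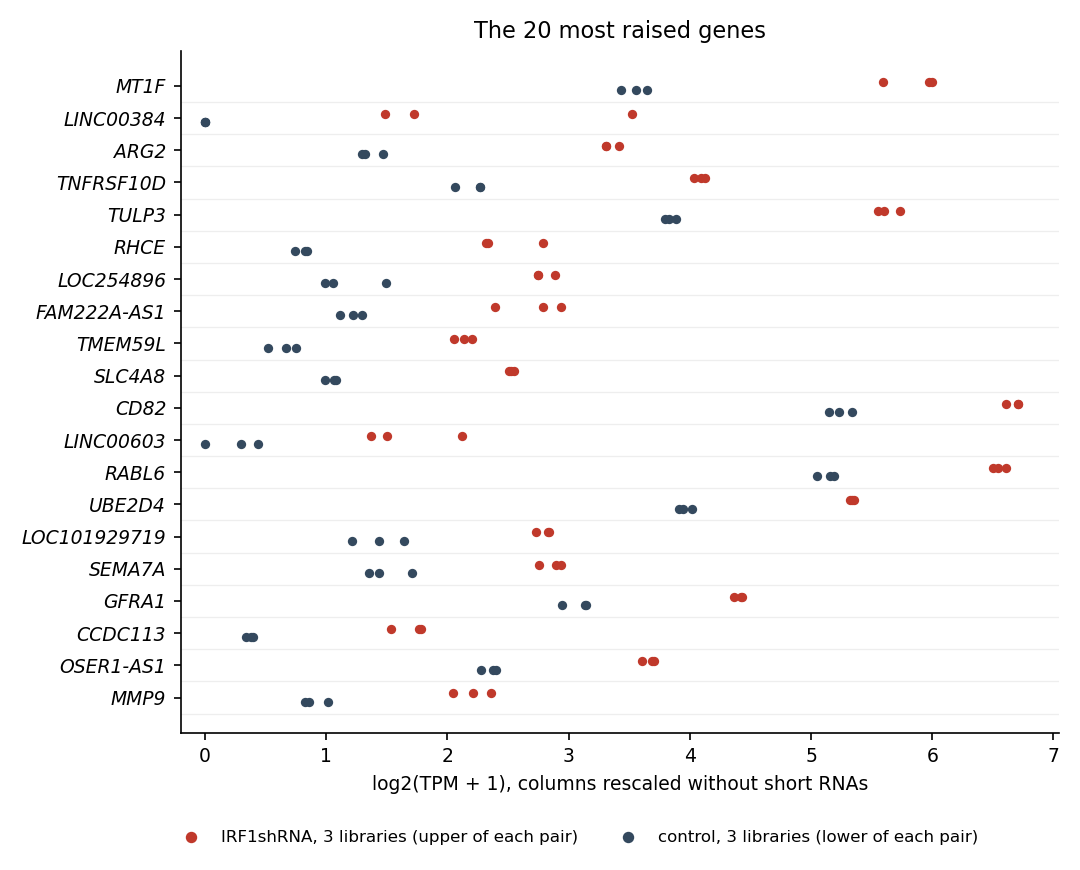
Log2(TPM + 1) of the 20 genes with the most positive log2 fold change among those called with no overlap, most positive at the top, with the 3 IRF1shRNA libraries above the 3 control libraries in each row. Control values of LINC00384 all lie at 0, and only CD82 and RABL6 exceed a value of 6 in every IRF1shRNA library.

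Chaperones of the endoplasmic reticulum were mostly higher, by small amounts. Of 21 tested genes 19 were higher by adjusted p and 0 were lower, with a median log2 fold change of 0.32. With the deposited columns 6 of 20 tested genes passed. HERPUD1, which takes part in degradation of misfolded proteins, was the 1 call, at 142 ± 1.25 TPM in IRF1shRNA cells and 68.2 ± 3.61 TPM in control cells. HSPA5, the main luminal chaperone BiP, averaged 1153 ± 60.1 TPM in IRF1shRNA cells and 719 ± 10.6 TPM in control cells (log2 fold change 0.68, adjusted p = 1.12e-07), and CRELD2, a luminal disulfide isomerase, had 0.74. HMOX1, the heme oxygenase, was called higher at 208 ± 9.07 TPM in IRF1shRNA cells and 103 ± 4.99 TPM in control cells, but its log2 fold change of 1.01 was under the fold limit in 7 of 19 alternatives, including those without IRF1shRNA replicate 3, control replicate 1 or control replicate 2. Of 19 NRF2 target genes 9 were lower and 4 higher by adjusted p. Genes of the nuclear-encoded respiratory chain, 56 tested, had 0 calls (1 without IRF1shRNA replicate 3 or control replicate 3) and a median log2 fold change of 0.07, which turned to -0.05 with the deposited columns.

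The genes called here were also read in the table of PBRM1 silencing in BT-549 cells, which has its own control libraries and was fitted on its own. That table called 7% of its 12705 tested genes lower and 0.952% higher. Of the 319 genes called lower with IRF1shRNA that were tested there, 152 were called lower with PBRM1shRNA (47.6%, or 19.7% of the PBRM1 calls that were tested in both), and 5 were called higher. Of 67 genes called higher with IRF1shRNA, 4 were called higher and 10 lower with PBRM1shRNA. IFI27 had a log2 fold change of -5.39 with IRF1shRNA and -6.67 with PBRM1shRNA, ISG15 of -2.94 with IRF1shRNA and -4.63 with PBRM1shRNA, and IFIH1 of -2.95 with IRF1shRNA and -4.94 with PBRM1shRNA. FGFRL1 had -2.86 with IRF1shRNA and 0.37 with PBRM1shRNA, ADAM19 -2.71 with IRF1shRNA and 0.62 with PBRM1shRNA, ANXA2 -1.58 with IRF1shRNA and 0.07 with PBRM1shRNA, and HIST3H2BB -1.68 with IRF1shRNA and 0.31 with PBRM1shRNA. IRF1 itself had -1.799 with IRF1shRNA and -1.76 with PBRM1shRNA, and in MDA-MB-436 cells with induced MUC1shRNA it had 0.03. The tables were normalized separately, and differences between them were not tested.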

How the data were processed

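RNA was sequenced with a stranded mRNA kit from triplicate cultures per group. The submitters' processing notes name STAR, GRCh38 and DESeq2; for versions, annotation and read counter, no source used here gives them. The authors deposited TPM per gene symbol and library, each column summing to 1000000 with short noncoding RNAs included, and a DESeq2 table whose comparisons were not used; of that table only the authors' mean normalized count score, as deposited, was read, as a guide to depth.

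Here, 42 symbols of short noncoding RNAs (RN7SK, RN7SL, RPPH1, RMRP, SNORD, SNORA, SCARNA, RNU) of 25540 were removed, columns were rescaled to 1000000, genes with at least 1 TPM in at least 3 of 6 libraries were kept, and log2(TPM + 1) was tested with limma 3.58.1 in R 4.3.3 (lmFit, eBayes with trend, two-sided, Benjamini-Hochberg over all 12729 genes). The pseudocount understates changes of low genes. A gene was called where the adjusted p was below 0.05 and the log2 fold change exceeded 1 in size. "Higher" and "lower by adjusted p" use the first criterion alone. Errors of means are SD over 3 libraries. The code was tested on simulated data.

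Members and gene lists were chosen with earlier results of these data known. Several list members are not reported here and were left out of the list counts, though not of the counts over all genes or of those split by IFN-related lists. Named genes were IRF1 and the genes the study followed, the 20 most negative and 20 most positive calls without overlap, and up to 5 members per list with the largest fold change, plus defining members; others are marked in the text. The alternatives were 5 scalings or short RNA sets, 2 pseudocounts, 2 filters, 4 model settings and 6 omissions of a library. Promoters and coordinates are from RefSeq (GRCh38.p14), with older symbols matched through synonyms. Figures were drawn with matplotlib 3.10.9.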

Additional observations from a re-analysis of the deposited data

How the results depend on the processing

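Of 251 named genes, 220 kept their direction and their side of the adjusted p threshold in each of the 19 alternatives that tested them, and 5 changed direction in at least 1; IRF1 kept both in all 19, with log2 fold changes of -1.84 to -1.76 when 1 library was left out. The size of the calls depended on the scale, while the calls themselves were mostly shared. With the short noncoding RNAs left in the deposited columns 163 genes were called lower (156 of them also in the report) and 5 higher; a pseudocount of 0.1 gave 501 and 222, a pseudocount of 5 gave 160 and 18, and a mean of at least 5 TPM left 47 higher, by construction a change of the compression of low genes or of the genes tested. TMM, quantile and median scaling, the wider set of short RNAs, no filter and the 3 other eBayes or weight settings kept both counts within 1.5 times. Leaving out 1 library gave 288 to 355 genes called lower and 64 to 91 called higher, and genes expressed in 1 group alone then drop out of the filter. The replicate numbers do not pair the libraries (correlations of the deviations of same-numbered libraries of -0.02, 0.06 and 0.01), and a replicate block gave 332 lower and 82 higher, the same genes in both cases. The motif share of the 19 matched promoters was 15.8% with 3 copies of GAAA in place of 2; the planned share with adjusted p alone was not run, since too few promoters were matched.

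Directions near 0 changed. MUC1 turned to -0.0844 with the deposited columns, -0.0170 with TMM and -0.00414 with quantile scaling, and ranged from -0.0425 to 0.0835 when 1 library was left out. IFNAR2 turned to -0.0753 with the deposited columns, -0.0218 with TMM and -0.00819 with array weights. The deposited columns also gave -0.0153 for XBP1, -0.0406 for PSMB6 and -0.00781 for IFNAR1. The causes of these changes were not tested. Read depth per library is unknown, 3 cultures of 1 line stand for each group, and genes of a few TPM have folds that the pseudocount of 1 compresses.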

Other observations

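Further IFN-linked families were lower in IRF1shRNA cells. The mono-ADP-ribosylating enzymes PARP14, PARP10 and PARP9 had log2 fold changes of -2.65, -2.402 and -2.29, DTX3L, the ligase partner of PARP9, had -1.96, and 5 of 6 tested genes of this list were called. PARP10 passed the filter only through the control libraries. PARP14 averaged 5.72 ± 0.473 TPM in IRF1shRNA cells and 41.1 ± 2.18 TPM in control cells. Of 7 tested guanylate-binding and related GTPases 4 were called lower, and GBP3, GBP4 and GBP5 passed the filter only through the control libraries, so that 2 of 4 were called without any 1 control library. In the apolipoprotein L family APOL1 and APOL6 were called (-2.13 and -1.75), APOL1 having passed the filter only through the control libraries, and APOL2 had -0.41. Complement factor CFB averaged 1.02 ± 0.111 TPM in IRF1shRNA cells and 3.67 ± 0.469 TPM in control cells, and the C1 inhibitor gene SERPING1, which passed the filter only through the control libraries, had -1.09.

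Outside the IFN response, 16 of 25 sterol synthesis genes were lower by adjusted p and 2 were called, namely STARD4, a cholesterol carrier (-1.42), and EBP, a sterol isomerase (-1.12). Of 13 fatty acid genes 9 were lower, with FADS2, a desaturase, as the 1 call (-1.03), which was lost with array weights and without IRF1shRNA replicate 1. Among 26 tested p53 targets 12 were lower and 8 higher by adjusted p (5 higher without IRF1shRNA replicate 2). Of all tested genes, 29.4% were lower and 35.3% higher by adjusted p. GADD45A (-1.301), PMAIP1 (-1.198) and GDF15 (-1.16) were called lower. BTG2 (1.06), which passed the filter only through the IRF1shRNA libraries, was called higher. ATF5, a stress-induced transcription factor, had -1.37. None of 38 double-strand break repair genes, 16 YAP targets, 13 growth factor genes or 20 genes of the MUC1 and SWI/SNF list was called. Over all tested genes only 2.61% were called lower and 0.644% higher, so the lack of a call says little about lists of this size. EXO1, a resection nuclease, had -0.63 and SMARCC1, a SWI/SNF core subunit, 0.57.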
